A study of Arabidopsis thaliana with 9 samples.

Results

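Whole rosettes of the quintuple jazQ mutant of Arabidopsis thaliana were compared with wild-type Col-0 rosettes by RNA-seq. The comparison used the 3 jazQ libraries and the 3 Col-0 libraries, 6 of the 9 libraries in the series, and covered every gene in the deposited count table. Of 33323 genes in that table, 19405 had enough counts to be tested. The other 3 libraries came from jazD, a line with more JAZ mutations, and are used here only to set a jazQ value beside theirs. The wild type is labelled as genotype wildtype in accession Col-0, jazQ as genotype jazQ in accession Col-0, and jazD as genotype jazD in an accession marked "Col-0*", with an asterisk that the labels do not explain. All plants were 23 days old and untreated as far as the labels say, raised on soil at 20 °C under days of 16 h and nights of 8 h. About 20 rosettes, with roots left out, were pooled per library, mutants and wild type shared trays, and the labels call the 3 libraries of a genotype biological replicates. The labels do not list the mutated genes. From background knowledge of the lines, the genes hit in jazQ are JAZ10, JAZ9, JAZ4, JAZ3 and JAZ1, to which jazD adds JAZ13, JAZ7, JAZ6, JAZ5 and JAZ2.

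Jasmonate is a hormone of wounding and defence. JAZ proteins bind MYC transcription factors and, with the adaptor NINJA and the co-repressor TPL, keep their target genes off. The hormone joins JAZ proteins to the receptor COI1, which marks them for degradation and frees the MYC factors. MYC factors act on wound and herbivore defence, on glucosinolates and on anthocyanins, while a branch shared with ethylene acts through the factors ERF1 and ORA59 on defensins and chitinases. In leaves, the MYC branch and the ethylene branch are known to oppose each other.

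Levels below are in CPM, the counts of a gene relative to the scaled size of its library. Changes are log2 fold changes of jazQ over Col-0 ± standard error, from an edgeR quasi-likelihood fit of all 9 libraries. A gene was called, and is said to have risen or fallen, at a Benjamini-Hochberg adjusted p under 0.05 over all genes tested. Total counts ran from 15370271 to 20730459 in the 6 libraries, which detected 22257 to 22619 genes each. On the first principal component of the 6 libraries, with 33.3% of the variance, Col-0 lay between -24.7 and -6.64 and jazQ between 11.4 and 28.9. Col-0 replicate 3 and jazQ replicate 2 were the libraries at the inner and the outer end. The flower markers were too low to test in all 8 cases, and the 3 testable root markers of 7 had summed levels of 12.7 to 13.6 CPM in Col-0 and 12.3 to 14.7 in jazQ. In whole rosettes, fewer cells of a type and less RNA per cell cannot be told apart.

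JAZ1 (AT1G19180), the first gene of the family and mutated in jazQ, was measured first as a check of the labels. Its level was 25.4, 26.5 and 23.8 CPM in Col-0 replicates 1 to 3 and 2.66, 2.54 and 2.79 CPM in jazQ replicates 1 to 3. The 3 jazQ libraries lay far under the 3 Col-0 libraries, with little spread in either group. JAZ1 was 9.42-fold lower in jazQ (-3.24 ± 0.11, edgeR adjusted p = 7.5e-09). In jazD it stood at 2.05, 2.69 and 2.26 CPM, so JAZ1 sets the jazQ libraries apart from Col-0 but not from jazD. Transcript of the other 4 mutated genes was detected in jazQ as well, and since parts of a gene away from an insertion may still be transcribed, their levels are no check of the labels.

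JAZ3 (AT3G17860) rose in jazQ, although it is mutated there. It had 14.8, 10.7 and 14.4 CPM in Col-0 and 54.5, 50.2 and 51.0 CPM in jazQ (1.96 ± 0.11, edgeR adjusted p = 1.41e-06). JAZ10 (AT5G13220), also mutated, had 3.40, 3.06 and 3.38 CPM in Col-0 and 17.1, 26.5 and 11.7 CPM in jazQ (2.48 ± 0.35, edgeR adjusted p = 0.0205). The groups did not overlap for either gene, and the jazQ libraries spread more for JAZ10 than for JAZ3. The JAZ10 call was lost without any 1 Col-0 library, without jazQ replicate 1, with limma-voom and in a fit of the 6 libraries alone, at values between 2.38 and 2.52. JAZ9 (AT1G70700) had 55.8, 53.9 and 77.2 CPM in Col-0 and 59.6, 99.3 and 68.6 in jazQ, so the groups overlapped (0.28 ± 0.23, not called). JAZ4 (AT1G48500) did not reach the count filter, at 0.461, 0.734 and 0.475 CPM in Col-0 and 0.466, 0.0590 and 0.0963 in jazQ.

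Of the JAZ genes that are intact in jazQ, none was called, and several were highest in jazQ replicate 2. JAZ5 (AT1G17380) had 2.88, 2.38 and 3.01 CPM in Col-0 and 5.52, 18.3 and 4.72 in jazQ (1.77 ± 0.61). JAZ8 (AT1G30135), a stable repressor of the family, had 0.173, 0.672 and 0.422 CPM in Col-0 and 1.66, 8.50 and 1.2 in jazQ (3.14 ± 1.06). JAZ7 (AT2G34600) had 1.5, 1.83 and 0.581 CPM in Col-0 and 2.46, 8.50 and 1.35 in jazQ (1.66 ± 0.76). In these genes jazQ replicate 2 stood far above the other jazQ libraries, and the jazQ range of JAZ7 overlapped that of Col-0. JAZ2 (AT1G74950), with 29.7, 47.3 and 31.4 CPM in jazQ against 21.1, 21.7 and 26.9 in Col-0 (0.64 ± 0.18), showed the same high library. JAZ13 (AT3G22275, with no name in the tables) was at 0.345, 0.367 and 0.528 CPM in Col-0 and 0.466, 2.07 and 0.771 in jazQ (1.39 ± 0.52). JAZ6, JAZ11 and JAZ12 had fold changes of -0.07 ± 0.16, 0.01 ± 0.13 and 0.21 ± 0.06, and those of JAZ6 and JAZ11 are too small for their sign to be read. Of 12 tested JAZ genes, 2 rose and 1 fell, with a family median of 1.01. Over all 19405 genes tested, 1.27% were called in either direction and the median was -0.00695. In a fit of the 6 Col-0 and jazQ libraries alone, only 11 JAZ genes passed the count filter. There 1 rose and 1 fell, with a median of 0.64. Without jazQ replicate 2, the family median was 0.46. The other 4 TIFY genes, relatives of JAZ without its full function, lay between -0.09 and 0.01 with 0 called.

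**Figure D1:**
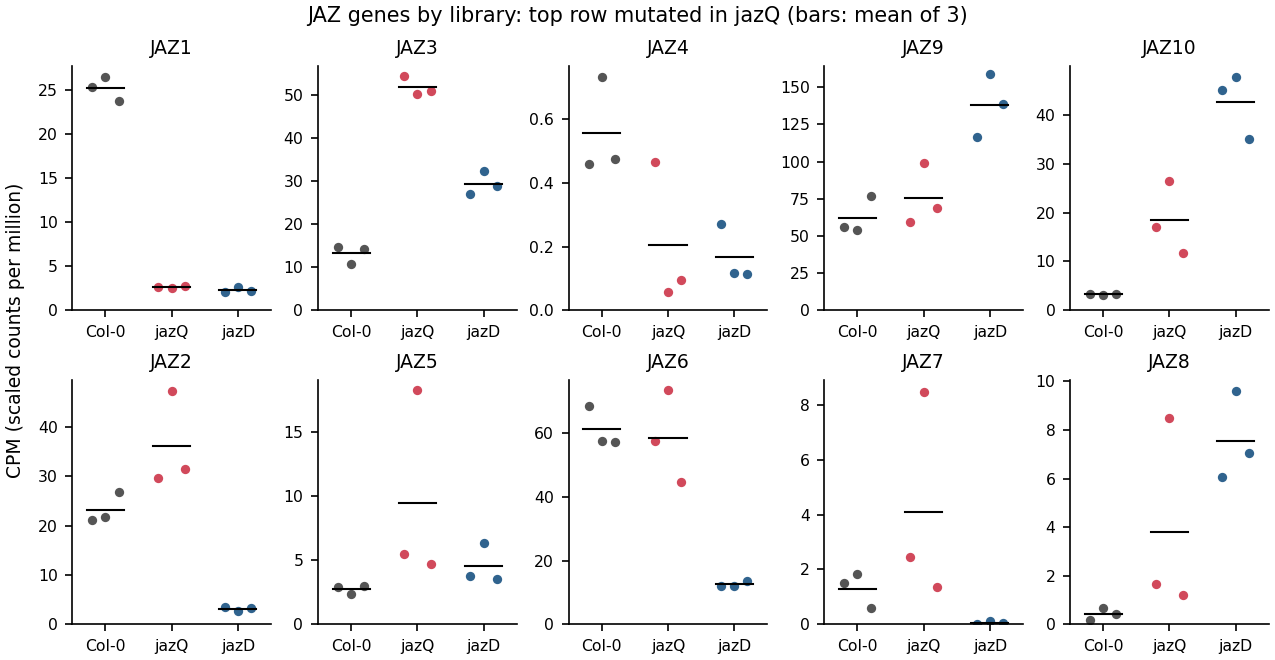
Levels of 10 JAZ genes in CPM (vertical axes, linear from 0) in each library of Col-0, jazQ and jazD. Points are libraries and bars are means of 3. JAZ1 is low in all jazQ libraries, JAZ3 lies at 50.2 to 54.5 CPM in jazQ against 10.7 to 14.8 in Col-0, and jazQ replicate 2 (the middle point) is the highest jazQ library for JAZ5, JAZ7, JAZ8 and JAZ10.

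Genes next to the mutated loci were read separately, because an insertion line can carry local effects and linked sequence. Among the 10 tested genes on each side of the 5 loci, 2 of 100 rose and 0 fell (2%, against 1.27% of all genes). HIP (AT3G17880), annotated as a tetratricopeptide thioredoxin, is the next tested gene after JAZ3. It had 22.5, 21.8 and 20.2 CPM in Col-0 and 41.8, 39.8 and 40.0 in jazQ (0.92 ± 0.08, edgeR adjusted p = 3.8e-05). The jazQ libraries were all far above the Col-0 ones, a fold of 1.89. The other was PMEAMT (AT1G48600), a methyltransferase of phosphocholine synthesis and the seventh tested gene after JAZ4 (0.42 ± 0.07). Whether these rises come from the insertions was not tested.

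In all, 167 genes rose (0.861% of those tested) and 80 fell (0.412%). Of these, 51 rose and 22 fell by at least 2-fold, and the median change was 0.72 among the rises and -0.69 among the falls. The 3 jazQ libraries did not overlap the 3 Col-0 libraries in any of the 247 called genes, while 17.3% of all tested genes showed no overlap. The counts of calls leaned on single libraries: leaving out Col-0 replicate 2 left 93 rises and 43 falls, and leaving out Col-0 replicate 3 gave 194 and 173. On each of the 5 chromosomes, 1.16 to 1.39% of the tested genes were called. For comparison, 28.8% of tested genes were called between jazD and jazQ, and 13.3% were higher and 12.5% lower in jazD than in Col-0.

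**Figure D2:**
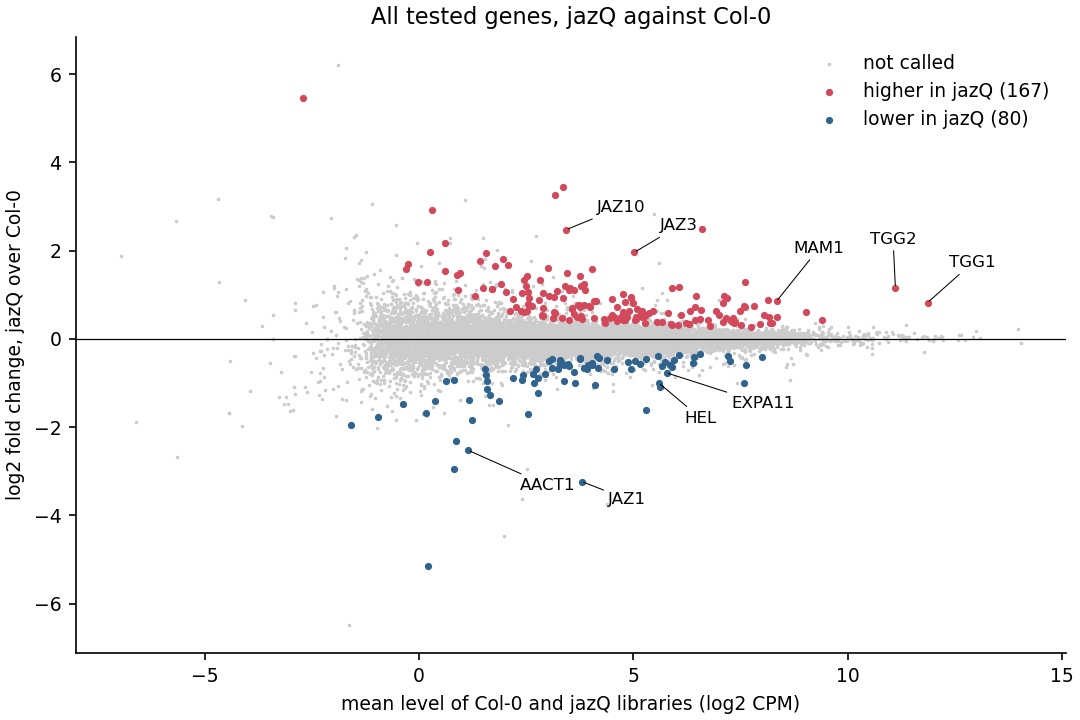
Log2 fold change of jazQ over Col-0 (vertical axis) against mean level in log2 CPM (horizontal axis) for the genes tested. Red points are the 167 genes called higher and blue points the 80 called lower. TGG1 and TGG2 are the most abundant called genes, JAZ1 is among the strongest falls, and most red points lie under 2 on the log2 scale.

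Of the gene lists read here, the one with the highest share of called members was that for aliphatic glucosinolates, sulfur-rich defence compounds of the cabbage family made from methionine. Of 21 tested members of this list, 17 rose and 0 fell, where 0.861% and 0.412% of all tested genes did. The median was 0.63, with 20 members above 0. Their summed level was 1930 to 2090 CPM in the Col-0 libraries and 2920 to 3070 in the jazQ libraries. The number of rises was 11 without Col-0 replicate 2, 12 without Col-0 replicate 1 and 13 to 18 without any other single library, 13 in a fit of the 6 libraries alone, and 12 on TPM. The median change was 0.43, 0.67 and 0.67 in jazQ replicates 1, 2 and 3, so jazQ replicate 2 did not stand apart here.

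Of the 3 MYB activators of this pathway, 2 were called. MYB29 (AT5G07690), an activator of the pathway, had 21.5, 23.2 and 25.4 CPM in Col-0 and 30, 40.9 and 37.3 in jazQ (0.63 ± 0.11, edgeR adjusted p = 0.00888). Its close relative MYB76 (AT5G07700) had 1.67, 1.59 and 2.01 CPM in Col-0 and 3.79, 4.25 and 3.66 in jazQ (1.14 ± 0.17, edgeR adjusted p = 0.0031). MYB28 (AT5G61420), the other main activator, was not called, with 48.7, 50.2 and 52.5 CPM in Col-0 and 48.5, 61.2 and 58.1 in jazQ (0.15 ± 0.08). The groups were separate for MYB29 and MYB76 and overlapped for MYB28. Whether the changes of these 3 genes differ from each other was not tested.

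The first group of these genes lengthens the methionine side chain. MAM1 (AT5G23010), the condensing enzyme, had 227.6, 226.8 and 239.6 CPM in Col-0 and 435.7, 395.9 and 424.4 in jazQ. All jazQ libraries lay well above all Col-0 libraries, a 1.81-fold rise (0.86 ± 0.06, edgeR adjusted p = 1.23e-05). BCAT4 (AT3G19710), which deaminates methionine before elongation, went from 89.3, 92.6 and 103 CPM to 141, 151 and 151 (0.63 ± 0.07). Of the 50-base stretches of its exons, 25.5% also occur in another gene model, so its share of reads is less certain. The isomerase subunit IPMI2 (AT2G43100) had 78.8, 68.4 and 76.2 CPM in Col-0 and 119, 112 and 118 in jazQ (0.64 ± 0.06, edgeR adjusted p = 0.000142). The dehydrogenase IMD1 (AT5G14200) went from 142, 144 and 156 CPM to 245, 234 and 248 (0.72 ± 0.07, edgeR adjusted p = 0.000142). For each of these genes the lowest jazQ library was above the highest Col-0 library. The large isomerase subunit IIL1, the subunit IPMI1 and the keto-acid transporter BAT5 also rose, by 0.35 ± 0.05, 0.59 ± 0.11 and 0.64 ± 0.11. MAM3 (AT5G23020), the condensing enzyme for longer chains, was not called (-0.02 ± 0.12).

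The next group builds the core of the molecule. CYP79F1 (AT1G16410), which turns elongated methionine into its oxime, had 165, 168 and 179 CPM in Col-0 and 253, 304 and 293 in jazQ (0.73 ± 0.07, edgeR adjusted p = 0.000128). CYP83A1 (AT4G13770), which acts on that oxime, went from 228, 230 and 257 CPM to 316, 350 and 339 (0.49 ± 0.06). GSTU20 (AT1G78370), the glutathione transferase linked to this pathway, was among the 6 most abundant called genes, with 404.8, 404.4 and 421.3 CPM in Col-0 and 635.5, 632.4 and 617.3 in jazQ (0.62 ± 0.07). The groups were separate in these 3 genes as well. CYP79F2 (0.92 ± 0.20), the sulfotransferases SOT17 (0.57 ± 0.09) and SOT18 (0.39 ± 0.08), the glucosyltransferase gene AT2G31790 (0.33 ± 0.06) and AOP2 (AT4G03060), a side-chain dioxygenase gene (0.95 ± 0.17), rose. In Col-0, AOP2 is known to make no functional enzyme, and its neighbour AOP3 was too low to test. GSTF11 and FMOGS-OX1 were not called (0.73 ± 0.18 and 0.33 ± 0.10).

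**Figure D3:**
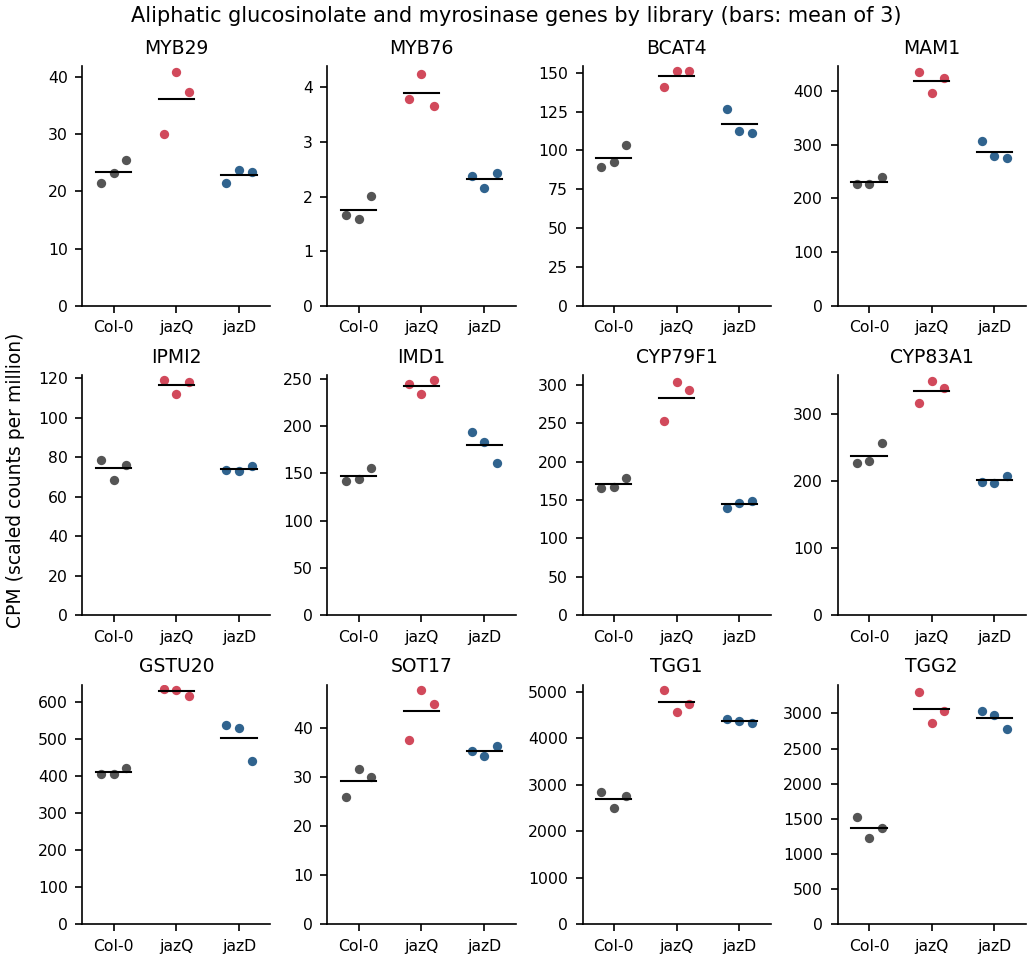
Levels in CPM (vertical axes, linear from 0) of 10 aliphatic glucosinolate genes and the myrosinase genes TGG1 and TGG2 in each library of Col-0, jazQ and jazD. Points are libraries and bars are means of 3. In all 12 panels the jazQ libraries lie above the Col-0 libraries. The jazD libraries fall back to near or part of the way to Col-0 in MAM1, IPMI2, IMD1 and GSTU20, and lie below all Col-0 libraries in CYP79F1. In TGG1 and TGG2 they stay near the jazQ level.

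A set of genes around this pathway was chosen after their values were seen. Among enzymes that supply methionine, ATMS2 (methionine synthase, 0.33 ± 0.07), AK-HSDH I (0.43 ± 0.09), AK3 (aspartate kinase, 0.71 ± 0.10) and HMT3 (homocysteine methyltransferase, 0.94 ± 0.19) rose, and 55.7% of the exon stretches of AK3 occur in another gene. The aspartate kinase AK-LYS1 was not called (0.09 ± 0.06), and the whole supply pathway was not counted. The calls of ATMS2, AK-HSDH I and HMT3 were lost when 1 library was left out (Col-0 replicate 1 or 2, or in jazQ replicate 2 or 3). ATBCAT-3 (AT3G49680), an aminotransferase of late chain elongation, rose by 0.41 ± 0.07. The S-oxygenases FMO GS-OX2 (AT1G62540) and FMO GS-OX3 (AT1G62560), which modify the finished side chain, rose by 1.06 ± 0.14 and 0.62 ± 0.13.

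jazD libraries differed from jazQ in this pathway by a direct test. Of the 21 aliphatic genes, 19 were lower in jazD than in jazQ and 0 higher, with a median of -0.56, where 13.8% of all tested genes were lower in jazD than in jazQ. Set against Col-0, 4 were higher and 3 lower in jazD, with a median of -0.07. Over all tested genes, 13.3% were higher and 12.5% lower in jazD than in Col-0. CYP79F1 stood at 140, 146 and 149 CPM in jazD, below all jazQ and all Col-0 libraries (jazD minus jazQ -0.97, edgeR adjusted p = 4.21e-07). MAM1 stood at 306, 278 and 275 CPM, between the groups (jazD minus jazQ -0.55, edgeR adjusted p = 2.42e-05).

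Indole glucosinolates are the relatives made from tryptophan. Of 20 tested genes for them, 2 rose and 0 fell with a median of -0.06 (0.861% of all tested genes rose). Between the mutants, 16 were higher in jazD than in jazQ and 0 lower (15.0% of all tested genes were higher in jazD). With the 6 Col-0 and jazQ libraries alone, 19 of the 20 passed the count filter and 1 rose over Col-0. The rises were CYP79B3 (AT2G22330), the first enzyme from tryptophan (0.36 ± 0.08, edgeR adjusted p = 0.0465), and GGP1 (AT4G30530), a peptidase of the core pathway (0.38 ± 0.08). Without any 1 jazD library the CYP79B3 call was lost, and on TPM both were. Both calls were lost when 1 library was left out (Col-0 replicate 1 or 2, or in jazQ replicate 2 or 3). CYP79B2, CYP83B1 and the activator MYB51 had values of 0.24 ± 0.08, -0.17 ± 0.07 and -0.52 ± 0.23. None of the 9 tryptophan synthesis genes was called, with TSB2 the nearest to the threshold (0.27 ± 0.10). Of 11 sulfate assimilation genes, 0 were called, with APK2 (AT4G39940), which makes the sulfate donor, at 0.54 ± 0.13.

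Myrosinases, the enzymes that split glucosinolates when tissue is crushed, were the most abundant transcripts among the called genes. TGG1 (AT5G26000) had 2835, 2504 and 2762 CPM in Col-0 and 5029, 4559 and 4727 in jazQ (0.82 ± 0.06, edgeR adjusted p = 2.59e-05). TGG2 (AT5G25980) had 1528, 1225 and 1362 CPM in Col-0 and 3306, 2861 and 3031 in jazQ (1.16 ± 0.08, edgeR adjusted p = 1.23e-05). The 2 groups were well apart for both genes, by 1.77-fold and 2.24-fold. Per length, in mean TPM, TGG1 was at 1914 in Col-0 and 3348 in jazQ, above TGG2 at 959 and 2122. In jazD both genes stood near their jazQ level, and the difference was not called (-0.13 and -0.06, edgeR adjusted p = 0.155 and 0.605).

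Some genes for proteins that steer the products of myrosinase rose as well. With TGG1 and TGG2, the genes ESP and NSP1 were the only called members of the myrosinase list. ESP (AT1G54040), the epithiospecifier protein, had 25.2, 23.8 and 29.3 CPM in Col-0 and 41.3, 39.5 and 44.7 in jazQ (0.68 ± 0.09). NSP1 (AT3G16400), a nitrile specifier protein, rose by 0.46 ± 0.08, with 27.5% of its exon stretches shared with another gene. Of 10 tested members of the myrosinase list, 4 rose and 0 fell, where 0.861% and 0.412% of all tested genes did. The median was 0.57, and the count of rises stayed at 4 to 6 when 1 library at a time was left out. In a fit of the 6 Col-0 and jazQ libraries alone, only 9 passed the count filter, 4 rose and the median was 0.47. The myrosinase-binding proteins MBP1 and MBP2 were not called (0.11 ± 0.30 and 0.80 ± 0.18).

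Myrosinases are known from guard cells and from myrosin cells along the veins, and FAMA is a regulator of both cell types. FAMA (AT3G24140) rose in jazQ, from 16.9, 19.4 and 21.6 CPM to 26.6, 28.6 and 26.4 (0.49 ± 0.10, edgeR adjusted p = 0.0225). The call was lost when 1 library was left out (Col-0 replicate 1 or 2, or in jazQ replicate 2 or 3). It was the only called gene of 6 guard cell markers, where 1.27% of all tested genes were called. The summed level of these 6 markers was 50.2 to 58.6 CPM in Col-0 and 61.0 to 68.9 in jazQ. The guard cell genes MYB60, KAT1 and HT1 had values of 0.02 ± 0.09, 0.03 ± 0.12 and 0.13 ± 0.23. The part of these markers in the myrosinase result was not tested. Among 6 trichome markers, GL2 (AT1G79840), a leaf hair regulator, rose (0.51 ± 0.10), a call lost without any 1 Col-0 or jazQ library, and their summed level was 17.6 to 19.7 CPM in Col-0 and 24.4 to 26.8 in jazQ.

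ER bodies are compartments that store β-glucosidases for another class of glucosinolate breakdown. Of 17 tested ER body genes, 4 rose and 0 fell, where 0.861% and 0.412% of all tested genes did. The median was 0.46. With 1 library left out, the rises ran from 1 (Col-0 replicate 1 or 2, or jazQ replicate 2) to 7 (Col-0 replicate 3). JAL22 (AT2G39310), a lectin, had 9.50, 9.05 and 8.87 CPM in Col-0 and 12.4, 16.8 and 14.3 in jazQ (0.67 ± 0.12). MEB1, a membrane protein of the bodies, rose by 0.47 ± 0.09, and the lectin JAL34 by 0.46 ± 0.09 with 20.8% of its exon stretches shared with another gene. The β-glucosidase BGLU22 (AT1G66280), 1 of the 4 rises, had 0 counts in the 3 Col-0 libraries and 16 in the 3 jazQ libraries. It reached the count filter only through jazD, at 1.665, 1.855 and 1.75 CPM. Against a limit of 3 counts over the group it was at least 5.33-fold higher in jazQ, by counting error only. PYK10 (AT3G09260), the main glucosidase of the bodies in seedlings, and the regulator NAI1 (AT2G22770) were not called (0.20 ± 0.06 and 0.25 ± 0.31). Of these 17 genes all were higher in jazD than in jazQ, where 15.0% of all tested genes were. With the 6 Col-0 and jazQ libraries alone, only 15 of the 17 passed the count filter. The others were tested because of their jazD level, so their place in this count was fixed by the filter. In that fit of 6 libraries, only 2 ER body genes rose over Col-0 and the median was 0.37.

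Jasmonate is cleared by oxidation, conjugate splitting and methylation. Of 10 tested genes for this breakdown, 3 rose and 0 fell, where 0.861% and 0.412% of all tested genes did. The median was 1.18, with all members above 0. In a fit of the 6 Col-0 and jazQ libraries alone, only 9 passed the count filter, 3 rose and the median was 1.13. AT2G38240, annotated as a 2-oxoglutarate oxygenase and listed here among the jasmonate oxidases, had 1.38, 1.16 and 1.06 CPM in Col-0 and 5.79, 4.43 and 3.85 in jazQ (1.95 ± 0.21, edgeR adjusted p = 0.000284). ILL6 (AT1G44350), an amidohydrolase of jasmonate conjugates, had 7.66, 6.72 and 10.9 CPM in Col-0 and 20.5, 23.6 and 16.5 in jazQ (1.25 ± 0.20). JMT (AT1G19640), which methylates jasmonic acid, went from 5.29, 3.79 and 5.54 CPM to 9.11, 10.0 and 8.19 (0.89 ± 0.14). The groups were separate in all 3 genes, and the ILL6 call was lost when 1 library was left out (Col-0 replicate 1 or 2, or in jazQ replicate 1 or 2). The oxidases CYP94B3 and CYP94C1, which inactivate the active conjugate, were highest in jazQ replicate 2, at 14.9 and 18.8 CPM against at most 7.72 in the other jazQ libraries, and were not called.

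Of 18 tested synthesis genes, 1 rose and 0 fell, where 0.861% and 0.412% of all tested genes did. The median was 0.33, with 15 members above 0. The rise was AOS (AT5G42650), allene oxide synthase, with 132, 137 and 163 CPM in Col-0 and 218, 272 and 233 in jazQ (0.75 ± 0.11, edgeR adjusted p = 0.00578). Without Col-0 replicate 3 the list had 5 rises. AOC1 (AT3G25760), the cyclase of the next step, lay just outside the threshold, with 20.8, 17.1 and 31.1 CPM in Col-0 and 47.5, 58.6 and 47.3 in jazQ (1.15 ± 0.21, edgeR adjusted p = 0.0515). LOX2 (AT3G45140), the lipoxygenase at the start, had 490, 479 and 626 CPM in Col-0 and 657, 667 and 735 in jazQ (0.37 ± 0.09, edgeR adjusted p = 0.0886). Neither gene overlapped between the groups. In LOX3, OPR3 and AOC3, jazQ replicate 2 was far above the other jazQ libraries, for example 74.5 CPM of LOX3 against 26.3 and 19.9.

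None of the 11 jasmonate signalling genes was called, and their median was 0.11. The receptor gene COI1, the factors MYC3 and MYC4 and the adaptor NINJA had values of -0.07 ± 0.09, -0.10 ± 0.08, 0.19 ± 0.12 and 0.17 ± 0.07. MYC2 (AT1G32640), the leading factor, had 28.7, 34.6 and 36.8 CPM in Col-0 and 42.4, 84.5 and 56.7 in jazQ (0.88 ± 0.25, edgeR adjusted p = 0.21). All jazQ libraries exceeded all Col-0 libraries, and jazQ replicate 2 was again the highest. The MYC2 value passed with the DESeq2 Wald test and without jazQ replicate 1, and 98.5% of its exon stretches lie in another annotated gene as well.

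Wound and herbivore defence genes, known targets of the MYC factors, had 3 rises and 0 falls of 17, with a median of 0.82. Over all tested genes, 0.861% rose and 0.412% fell. ARGAH2 (AT4G08870), an arginase that breaks down arginine, had 108, 95.3 and 133 CPM in Col-0 and 294, 269 and 263 in jazQ (1.3 ± 0.11, edgeR adjusted p = 0.000159). The lectin JR1 (AT3G16470) went from 89.7, 76.0 and 115 CPM to 174, 188 and 193 (0.98 ± 0.13), with 24.5% of its exon stretches shared. PGIP2 (AT5G06870), an inhibitor of fungal pectinases, went from 21.3, 20.7 and 26.7 CPM to 46.8, 41.9 and 33.2 (0.82 ± 0.13), a call lost when 1 library was left out (Col-0 replicate 1 or 2, or in jazQ replicate 2). The groups were separate in these 3 genes. VSP2 (AT5G24770), a storage protein and common jasmonate marker, had 5.52, 4.09 and 23.0 CPM in Col-0 and 100, 70.2 and 65.4 in jazQ (2.83 ± 0.60, not called). Col-0 replicate 3 was the high wild-type library for VSP2, for VSP1 (17.6 against 3.63 and 2.57 CPM) and for CORI3 (55.4 against 31.5 and 24.1 CPM). Without it the list had 8 rises, and without jazQ replicate 2 it had 2. Of these 17 genes, 15 were higher in jazD than in jazQ and 0 lower, where 15.0% of all tested genes were higher in jazD. With the 6 Col-0 and jazQ libraries alone, only 15 of the 17 passed the count filter, so the others were tested because of their jazD level. In that fit of 6 libraries, 2 genes of the list rose over Col-0.

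Of 18 tested flavonoid and anthocyanin genes, 9 rose and 0 fell, where 0.861% and 0.412% of all tested genes did. The median was 1.00 with all members above 0, and 8 to 9 rose when single libraries were left out. In a fit of the 6 Col-0 and jazQ libraries alone, only 17 passed the count filter, 9 rose and the median was 0.93. PAP1 (AT1G56650), a MYB activator of the pathway, had 1.55, 1.58 and 1.80 CPM in Col-0 and 4.06, 6.61 and 4.82 in jazQ (1.64 ± 0.22, edgeR adjusted p = 0.00173). DFR (AT5G42800), the first enzyme specific to the anthocyanin branch, had 9.50, 6.17 and 8.87 CPM in Col-0 and 27.9, 24.9 and 21.1 in jazQ (1.58 ± 0.15, edgeR adjusted p = 0.000267). LDOX (AT4G22880), the next enzyme, went from 10.7, 8.44 and 8.73 CPM to 22.0, 20.0 and 18.3 (1.11 ± 0.10). The jazQ libraries were clear of the Col-0 libraries in all 3 genes. GSTF12 (AT5G17220), needed to move anthocyanins to the vacuole, went from 7.66, 6.05 and 8.13 CPM to 20.2, 22.0 and 17.1 (1.43 ± 0.12).

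Further enzymes decorate the pigments. UGT79B1 (AT5G54060), a glycosyltransferase, had 1.96, 1.90 and 2.16 CPM in Col-0 and 6.52, 7.2 and 5.73 in jazQ (1.68 ± 0.14, edgeR adjusted p = 3.8e-05). The malonyltransferase 5MAT rose by 1.32 ± 0.15 and the glycosyltransferase gene AT4G14090 by 0.92 ± 0.12, with 21.8% of its exon stretches shared. Earlier and branching steps were also measured. TT4 (AT5G13930), chalcone synthase, went from 145, 126 and 148 CPM to 184, 184 and 178 (0.38 ± 0.07), TT7 rose by 0.74 ± 0.15, and the flavonol enzyme FLS1 was at 0.10 ± 0.14. In jazD, PAP1 was at 4.05, 5.85 and 5.59 CPM and did not differ from jazQ by the test (edgeR adjusted p = 0.988), while DFR at 56.1, 60.6 and 54.4 CPM was above it (jazD minus jazQ 1.22, edgeR adjusted p = 4.16e-05).

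Of 16 tested defence genes of the ethylene branch, 2 fell, 1 rose and 13 were not called. Over all tested genes, 0.412% fell and 0.861% rose. The median of the list was -0.84, with 3 members above 0. Their summed level was 173 to 264 CPM in Col-0 and 88.0 to 107 in jazQ. HEL (AT3G04720), a chitin-binding protein, had 56.8, 64.0 and 72.5 CPM in Col-0 and 28.7, 25.9 and 41.7 in jazQ (-1.0 ± 0.17, edgeR adjusted p = 0.034). The basic chitinase HCHIB (AT3G12500) had 3.40, 4.77 and 4.33 CPM in Col-0 and 1.93, 1.82 and 1.88 in jazQ (-1.15 ± 0.16, edgeR adjusted p = 0.0018). The groups were separate for both genes, and 31.8% of the exon stretches of HCHIB are shared. The HEL call was weak, since it was lost without any Col-0 or jazD library and without jazQ replicate 1 or 2.

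The defensins are small antifungal peptides of this branch. PDF1.2A (AT5G44420) had 28.7, 18.6 and 69.5 CPM in Col-0 and 2.53, 1.71 and 4.27 in jazQ (-3.74 ± 0.64, edgeR adjusted p = 0.0611, not called). PDF1.3 (AT2G26010) had 8.74, 4.2 and 17.9 CPM in Col-0 and 1.1, 0.672 and 2.06 in jazQ (-2.96 ± 0.67, not called). Every jazQ library was below every Col-0 library in these genes, and Col-0 replicate 3 was the highest of the wild-type libraries. The factor ORA59 (AT1G06160), which drives these defensins, had 3.74, 3.61 and 5.65 CPM in Col-0 and 1.53, 1.59 and 2.55 in jazQ (-1.17 ± 0.29, not called), and ERF1 was at 0.09 ± 0.59. The 1 rise was the thionin THI2.2 (AT5G36910), from 11.9, 12.7 and 12.3 CPM to 19.4, 29.6 and 18.4 (0.87 ± 0.16), a call lost without any Col-0 or any jazD library. The number of falls in the list was 1 to 4 when single libraries were left out, and 7 with the DESeq2 Wald test. In a fit of the 6 Col-0 and jazQ libraries alone, 1 fell and 0 rose of 13 tested.

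Between the mutants, 15 of the 16 genes were higher in jazD than in jazQ and 0 lower, with a median of 5.07. Of all tested genes, 15.0% were higher in jazD than in jazQ. With the 6 Col-0 and jazQ libraries alone, only 13 of the 16 passed the count filter. The others were tested because of their jazD level, so their place in this count was fixed by the filter. HEL stood at 1490, 1615 and 1453 CPM in jazD, against at most 41.7 in jazQ and at most 72.5 in Col-0 (jazD minus jazQ 5.56, edgeR adjusted p = 2.09e-07).

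**Figure D4:**
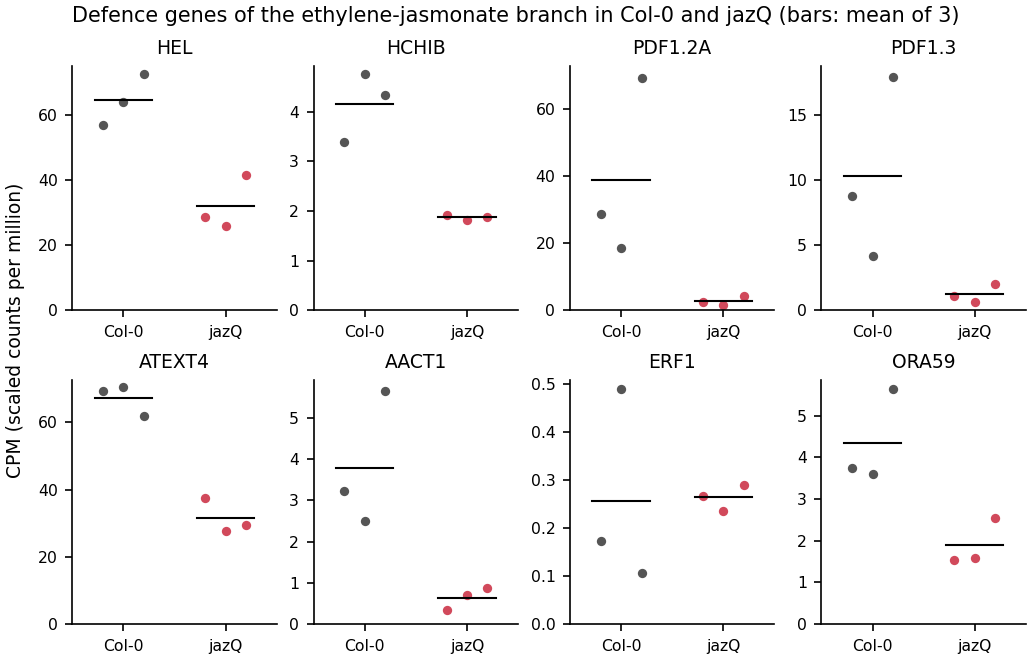
Levels in CPM (vertical axes, linear from 0) of 8 defence genes, most of them of the ethylene and jasmonate branch, in each library of Col-0 and jazQ. Points are libraries and bars are means of 3. HEL, HCHIB, ATEXT4 and AACT1 were called lower, while PDF1.2A, PDF1.3, ORA59 and ERF1 were not, and ERF1 overlaps between the groups.

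Further defence genes that fell were chosen after their values were seen, apart from ATEXT4. ATEXT4 (AT1G76930), a cell wall extensin and 1 of the 12 largest falls, had 69.3, 70.5 and 61.8 CPM in Col-0 and 37.4, 27.6 and 29.5 in jazQ (-1.1 ± 0.10, edgeR adjusted p = 0.000159). AACT1 (AT5G61160), named in the tables for anthocyanin acylation and known as an agmatine coumaroyltransferase, had 3.22, 2.51 and 5.65 CPM in Col-0 and 0.333, 0.708 and 0.867 in jazQ (-2.53 ± 0.42, edgeR adjusted p = 0.0322). The peroxidase PRX33 (AT3G49110) had 22.1, 22.0 and 22.8 CPM in Col-0 and 12.9, 14.5 and 14.9 in jazQ (-0.66 ± 0.07). All jazQ libraries were below the Col-0 libraries in these genes, and the AACT1 call was lost without Col-0 replicate 1 and without any 1 jazQ or jazD library. The peroxidase Prx37 (-2.33 ± 0.36), the lipase PLP2 (-0.63 ± 0.09), the nitrilase NIT4 (-0.68 ± 0.10), WRKY26 (-0.80 ± 0.10), ATERF-1 (-0.80 ± 0.13) and the chitinase gene AT2G43590 (-0.61 ± 0.09) also fell. Of these genes, picked for their falls, all 9 were called higher in jazD than in jazQ, against 15.0% of all genes tested. The choice and this contrast share the jazQ libraries, so low jazQ values favour such calls. The count says nothing of other genes that fell.

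**Figure D5:**
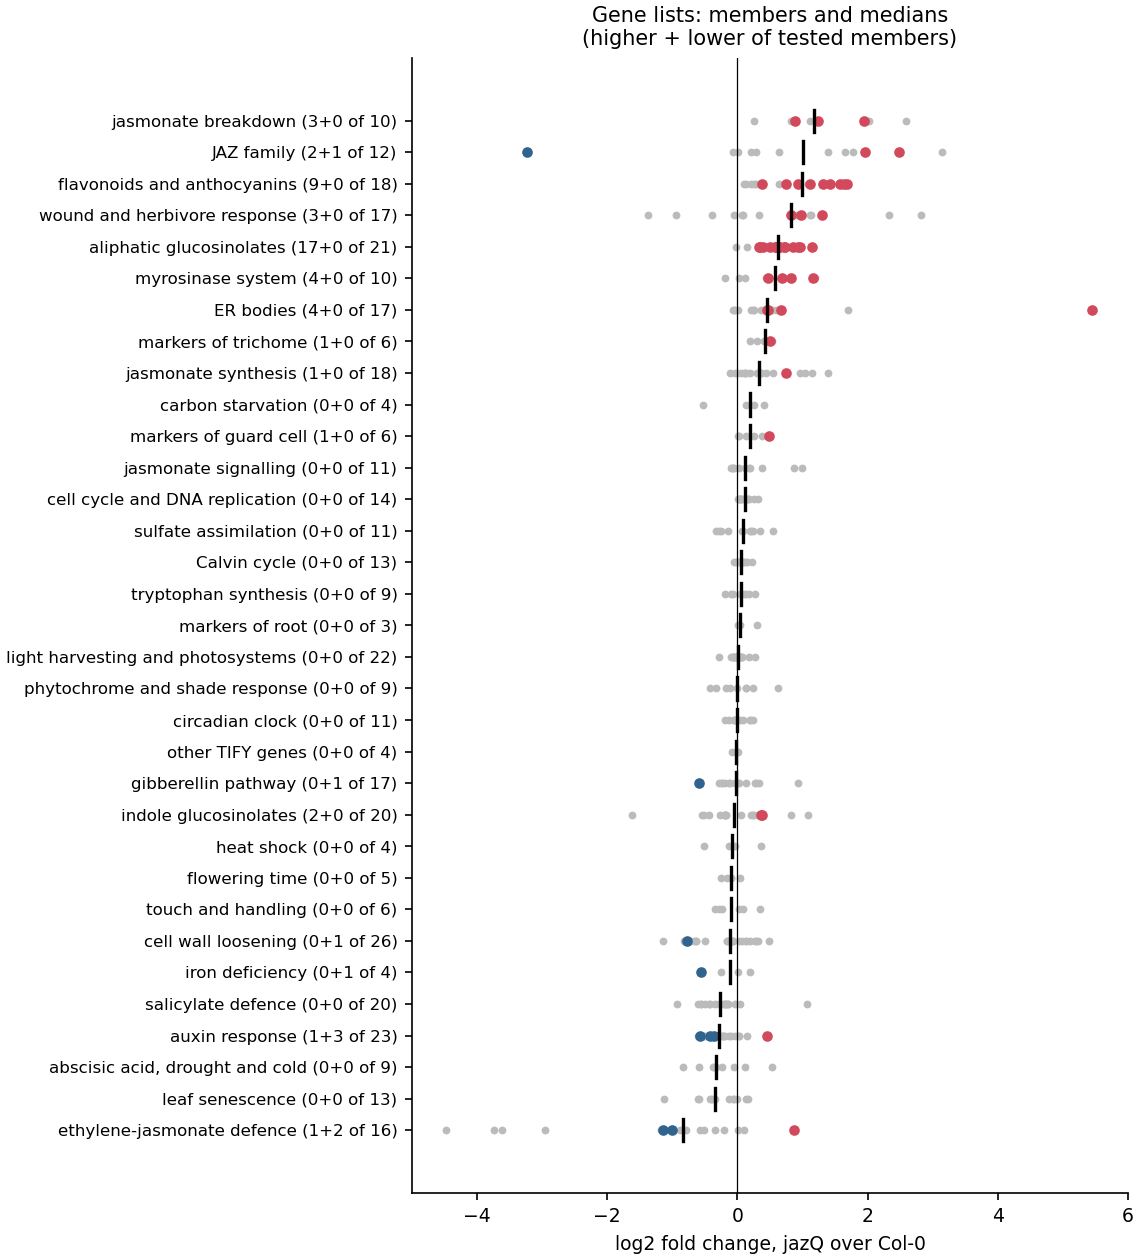
Log2 fold change of jazQ over Col-0 (horizontal axis) for the tested members of each gene list (rows, ordered by median). Red points were called higher, blue points lower and grey points neither, and black bars are list medians. Numbers in the labels give members called higher plus members called lower, of those tested. Aliphatic glucosinolates have 17 of 21 members in red, and the ethylene and jasmonate defence list has the lowest median, -0.84.

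Of 23 auxin response genes, 3 fell (0.412% of all genes fell) and 1 rose, with a median of -0.28 and 4 members above 0. Their summed level was 619 to 645 CPM in Col-0 and 526 to 542 in jazQ. IAA19 (AT3G15540), an early auxin gene, had 11.4, 11.9 and 11.7 CPM in Col-0 and 8.71, 7.26 and 7.56 in jazQ (-0.58 ± 0.10, edgeR adjusted p = 0.00884). The repressor IAA7 (-0.36 ± 0.07) and the growth gene SAUR16 (-0.42 ± 0.08) also fell, while the repressor IAA17 rose (0.46 ± 0.07). The IAA7 call was lost without Col-0 replicate 1 or without jazQ replicate 3, and the SAUR16 call without Col-0 replicate 2, Col-0 replicate 3, jazQ replicate 1 or jazQ replicate 2. With the 6 libraries alone, 1 auxin gene fell. Of 26 cell wall loosening genes, only EXPA11 (AT1G20190), an expansin, was called, with 70.0, 65.8 and 71.7 CPM in Col-0 and 39.1, 36.6 and 45.7 in jazQ (-0.77 ± 0.08, edgeR adjusted p = 0.000267). The jazQ libraries lay below the Col-0 libraries without overlap in IAA19 and EXPA11. EXPA11 was lower still in jazD, at 13.1, 14.1 and 14.7 CPM (jazD minus jazQ -1.53, edgeR adjusted p = 4.93e-08). GASA6 (AT1G74670), a gibberellin-regulated peptide, fell by 0.60 ± 0.08 on the log2 scale, with 20% of its exon stretches shared, and was the only call of 17 gibberellin genes. FRO3 (AT1G23020), an iron reductase, was the only call of 4 tested iron deficiency genes (-0.56 ± 0.08).

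The remaining lists had 0 called members in jazQ. The 22 genes for light harvesting and photosystems had a median of 0.01 and the 13 of the Calvin cycle a median of 0.05. Leaf senescence genes had a median of -0.34 over 13 genes, salicylate defence -0.27 over 20, and abscisic acid, drought and cold genes -0.33 over 9. In the salicylate list Col-0 replicate 2 was high, for example PR1 (AT2G14610), a pathogenesis marker, at 453, 736 and 330 CPM in Col-0 and 311, 258 and 461 in jazQ, and the groups overlapped. The lists for cell cycle, flowering time, clock, shade, carbon starvation, touch and heat held no call either, with medians of -0.11 to 0.20. Without Col-0 replicate 3, 3 salicylate genes, 1 senescence gene and 1 touch gene fell. At an unadjusted p under 0.05, 2392 of all tested genes passed by edgeR.

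Several of the largest changes lay outside the lists. AT4G17470, annotated as an alpha/beta-hydrolase, had 1.09, 0.917 and 3.01 CPM in Col-0 and 19.1, 19.7 and 17.6 in jazQ (3.44 ± 0.28, edgeR adjusted p = 0.000464). AT1G14250, a nucleoside phosphatase gene, went from 22.3, 20.6 and 44.9 CPM to 168, 172 and 158 (2.50 ± 0.29). Both groups were tight apart from a higher Col-0 replicate 3. The ligase gene 4CL8 (AT5G38120) rose by 1.81 ± 0.22, the peptidase gene SCPL9 (AT2G23010) by 1.6 ± 0.16 and the transporter gene AT1G22550 by 1.49 ± 0.11. In jazD, AT1G22550 was at 5.83, 7.31 and 6.15 CPM, near its Col-0 level (0.16, not called) and below jazQ (jazD minus jazQ -1.34, edgeR adjusted p = 1.27e-06).

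Among the largest falls, the peroxidase gene AT4G11290 went from 9.27, 7.64 and 10.0 CPM to 1.93, 2.71 and 3.47 (-1.70 ± 0.17, edgeR adjusted p = 0.000157). The methyltransferase gene AT1G15125 went from 57.6, 47.3 and 72.3 CPM to 19.5, 14.6 and 23.8 (-1.61 ± 0.20). The groups were separate in both. The copper protein UCC2 (-1.40 ± 0.19), G6PD3, a plastid enzyme of the pentose phosphate pathway (-1.24 ± 0.18), the ubiquitin enzyme UBC11 (-1.01 ± 0.11) and the extensin-like gene AT2G43150 (-1.0 ± 0.17) also fell. ESE3 (AT5G25190), an ethylene-responsive factor, fell by 1.04 ± 0.20 on the log2 scale at an edgeR adjusted p of 0.0459. The calls of ESE3 and AT2G43150 were lost without any 1 jazD library.

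Among transposon-derived genes, AT5G35935, annotated as a transposable element gene and 1 of the 12 largest rises, had 1.21, 2.08 and 1.76 CPM in Col-0 and 17.8, 15.8 and 15.1 in jazQ (3.27 ± 0.16, edgeR adjusted p = 3.91e-07). In jazD it was below Col-0 (-2.64, edgeR adjusted p = 4.33e-05). The other 3 were chosen after their values were seen, and the share of such genes called was not counted. AT3G60170 had 119 counts in the 3 Col-0 libraries and 3 in the 3 jazQ libraries, and SADHU3-2 (AT3G42658) went from 15 to 115 counts. In jazD neither of these differed from Col-0 by the test (-0.31 and -0.73, edgeR adjusted p = 0.377 and 0.427). AT1G25430 went from 8.35, 7.58 and 8.60 CPM in Col-0 to 5.32, 5.55 and 4.38 in jazQ (-0.69 ± 0.13), a call lost without Col-0 replicate 1 or without jazQ replicate 3. The 4 elements thus moved in different directions in jazQ.

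A last group, also chosen after their values were seen, concerned sugars and organic acids. FUM2 (AT5G50950), the cytosolic fumarase, had 221, 214 and 215 CPM in Col-0 and 318, 315 and 304 in jazQ (0.53 ± 0.05, edgeR adjusted p = 0.000117), but only 29.7, 28.9 and 29 in jazD. QQS (AT3G30720), a regulator of starch content, had 2.65, 2.57 and 4.06 CPM in Col-0 and 7.27, 8.33 and 9.49 in jazQ (1.43 ± 0.18), and 0.486, 0.468 and 0.734 in jazD. The jazQ libraries were thus the highest and the jazD libraries the lowest in both genes. The vacuolar fructose transporter SWEET17 (0.54 ± 0.06), the sucrose synthesis gene ATSPS3F (0.72 ± 0.15) and the vacuolar invertases AT1G62660 (0.90 ± 0.08) and ATBETAFRUCT4 (0.30 ± 0.05) rose, and the ATSPS3F call was lost without Col-0 replicate 2 or 3 or any 1 jazQ library.

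Promoters of the genes above were read for known sites. MYC factors bind the G-box CACGTG and its variant AACGTG, which reads as CACGTT on the other strand. ERF factors bind the GCC-box GCCGCC, which reads as GGCGGC on the other strand. The window was the 250 bases upstream of each annotated gene start, read from the TAIR10.1 genome with the RefSeq annotation by gene identifier, while the files used TAIR10. Both strands were searched, a window counted once per motif, and the motifs cannot match the same 6 bases. CACGTG was in 7.35% of the 19329 windows of tested genes, in 24 of 167 windows of genes that rose (14.4%) and in 5 of 80 of genes that fell (6.25%). AACGTG was in 7.30% of all windows, in 33 of the rises (19.8%) and in 2 of the falls (2.5%). GCCGCC was in 2.02% of all windows, in 0 of the rises and in 4 of the falls (5%). Among the 17 aliphatic glucosinolate genes that rose, 2 windows held CACGTG, 5 held AACGTG and 0 held GCCGCC. A match is only a run of letters, and no match says nothing of a factor.

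The windows of 5 genes are printed 5′ to 3′ on the gene's strand, with the matches in capitals. They were chosen to show a mutated repressor gene, a pigment gene, a myrosinase and a glucosinolate gene that rose, and a defence gene that fell. All 5 windows hold a match and cannot be taken as typical of such genes. The windows of JAZ1, PAP1, TGG1, MAM1 and HEL, genes of the same kinds, held none of the motifs. JAZ3 is at chr3:6119457-6119706 (+), UGT79B1 at chr5:21938397-21938646 (-), TGG2 at chr5:9072458-9072707 (+), IPMI2 at chr2:17920397-17920646 (+) and AACT1 at chr5:24608355-24608604 (+).
JAZ3: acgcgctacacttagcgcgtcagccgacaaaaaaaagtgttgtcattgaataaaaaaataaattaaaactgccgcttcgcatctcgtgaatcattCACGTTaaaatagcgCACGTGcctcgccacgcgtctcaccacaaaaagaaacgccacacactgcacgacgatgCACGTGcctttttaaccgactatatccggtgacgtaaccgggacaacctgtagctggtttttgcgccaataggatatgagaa
UGT79B1: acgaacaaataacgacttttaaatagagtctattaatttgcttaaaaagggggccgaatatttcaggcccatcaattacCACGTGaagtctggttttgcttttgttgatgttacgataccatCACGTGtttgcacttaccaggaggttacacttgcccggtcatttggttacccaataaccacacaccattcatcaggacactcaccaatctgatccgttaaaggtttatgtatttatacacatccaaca
TGG2: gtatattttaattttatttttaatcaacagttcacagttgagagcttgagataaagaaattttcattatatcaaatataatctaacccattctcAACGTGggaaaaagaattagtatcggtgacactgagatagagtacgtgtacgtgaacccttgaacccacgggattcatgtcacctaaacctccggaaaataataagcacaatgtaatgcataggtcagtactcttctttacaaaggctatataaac
IPMI2: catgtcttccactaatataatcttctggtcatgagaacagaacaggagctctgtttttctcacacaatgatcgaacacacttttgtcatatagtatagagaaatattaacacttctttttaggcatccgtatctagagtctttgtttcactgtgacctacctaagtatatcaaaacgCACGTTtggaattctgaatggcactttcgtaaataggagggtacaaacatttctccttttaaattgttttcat
AACT1: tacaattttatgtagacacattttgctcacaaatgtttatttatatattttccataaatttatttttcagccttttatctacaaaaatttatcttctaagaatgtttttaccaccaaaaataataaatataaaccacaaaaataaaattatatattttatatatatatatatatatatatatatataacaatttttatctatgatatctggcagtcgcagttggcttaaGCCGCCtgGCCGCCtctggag
JAZ3 holds CACGTG at 2 places and AACGTG at 1, UGT79B1 holds CACGTG at 2, and TGG2 and IPMI2 hold AACGTG at 1 place each. The AACT1 window holds GCCGCC at 2 places, both close to the gene start, and neither of the other motifs.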

How the data were processed

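RNA was sequenced on an Illumina instrument with 9 libraries per lane, from RNA with an integrity score of at least 7, per the labels' protocols. The deposited expected counts and the deposited TPM values per gene came from RSEM 1.2.25 with build TAIR10, per the submitters' processing notes. The aligner, strand setting and annotation version are not stated by the labels or headers, so genes that overlap or share sequence with another gene are uncertain.

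The expected counts were rounded to whole numbers. Genes were kept by filterByExpr with a minimum count of 10, scaled by TMM and fitted with edgeR 4.0.16 (robust quasi-likelihood, R 4.3.3) over all 9 libraries, which share the estimate of spread. The contrast was jazQ minus Col-0, with Benjamini-Hochberg adjustment over all 19405 genes tested and a threshold of 0.05. Standard errors were derived from the F statistic. TPM was used for levels compared between genes. Replicate pairs differed by more than counting noise.

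The alternatives were DESeq2 size factors, the DESeq2 1.42.0 Wald test, limma-voom 3.58.1 on unrounded counts, no filter, a mean of at least 5 CPM, the 6 libraries alone, a replicate block, limma on log2(TPM + 1) and log2(TPM + 0.1), and leaving out each library.

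Named genes were all 13 JAZ genes, the 12 largest rises and 12 largest falls among called genes whose libraries did not overlap and whose higher group averaged 5 CPM or more, up to 4 called members of each of 34 gene lists, or the tested member with the smallest p, called genes among the 10 tested on each side of a mutated locus, and the 6 most abundant called genes. Other named genes are list members given for context or are said to be chosen after their values were seen. The comparison and the gene lists were chosen with earlier results of these data known. Of the listed identifiers, 8 had no name in the tables.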

Additional observations from a re-analysis of the deposited data

How the results depend on the processing

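The count of genes that fell moved most with the processing. It was 143 with the DESeq2 Wald test and 49 in a fit of the 6 Col-0 and jazQ libraries alone, against 80. Leaving out 1 library gave 93 to 194 rises and 43 to 173 falls, with 104 and 49 without Col-0 replicate 1, 93 and 43 without Col-0 replicate 2, 173 falls without Col-0 replicate 3 and 47 falls without jazQ replicate 2. The cause was not tested. Of the 247 called genes, 119 were called in each of the 9 fits that left out 1 library. With DESeq2 size factors 246 of the 247 were called, with limma-voom 225, and on log2(TPM + 1) 197. A fit with the replicate number as a block called 315 genes higher and 257 lower. The labels do not say that a number marks a shared batch, so the libraries were not taken as paired. The deviations of same-numbered Col-0 and jazQ libraries correlated at 0.306, 0.015 and 0.174, and those of differently numbered ones at -0.245 to 0.088. Whether same-numbered libraries share a batch was not tested. The sign turned for some named genes that were not called, of which JAZ6, JAZ11 and ZIM were near 0. WER was at 0.30 ± 0.45, with 20 counts in Col-0 and 25 in jazQ. When 1 library was left out, JAZ6 ran from -0.2631 to 0.09968, with 0.02602 without Col-0 replicate 1. JAZ11 ran from -0.0684 to 0.08317, and was at -0.01164 on log2(TPM + 1) and -0.01357 on log2(TPM + 0.1). ZIM ran from -0.15 to 0.00274 and WER from -0.01377 to 0.7574. With 3 libraries a group and totals of 15370271 to 20730459, changes in weakly expressed genes were the least certain.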

Other observations

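Some genes outside the report's groups also changed, and were chosen after their values were seen. CER4, an enzyme that makes the alcohols of leaf wax, had 3.80, 1.71 and 3.85 CPM in Col-0 and 0.333, 0.413 and 0.434 CPM in jazQ (-2.96, edgeR adjusted p = 0.00189). The groups did not overlap. CYP85A2, an enzyme of brassinosteroid synthesis, fell by 0.59 on the log2 scale, a call lost when Col-0 replicate 1, Col-0 replicate 2, jazQ replicate 1 or jazQ replicate 2 was left out. RAV1, a transcription factor, fell by 0.54 on the log2 scale. AGL19, a MADS-box flowering regulator, rose by 1.97. DHAR1, an enzyme that recycles ascorbate, rose by 0.81, and 15.4% of its exon stretches are shared with another gene.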
